A study of Mus musculus with 9 samples.

Results

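The synaptic vesicle and exocytosis genes examined here are 47 genes of the 22667 listed in the expression tables, chosen by matching a list of gene symbols. All 47 were found once each, and 32 of them have cassette exons in the splicing tables, 168 exons among 54141. Of the 47, 41 passed the count filter of the replicated experiment, in which 12378 genes were tested. The source is polyA RNA of the mouse neuroblastoma line N2A, taken 48 hours after small interfering RNA pools were introduced. In experiment 1, cells received siMbnl1/Mbnl2, siNacc1 or the non-targeting pool siNT, with 1 library each. In experiment 2, cells received siSrrm4, siZfp871 or siNT, with 2 libraries each, lettered a and b in the deposited columns. All groups share the cell line, the reagent and the harvest time, and each knockdown is compared with the siNT of its own experiment. Srrm4 and the Mbnl proteins regulate alternative splicing, Nacc1 is a BTB domain protein that acts on transcription, and Zfp871 belongs to the zinc finger proteins. Whether libraries of 1 group are separate cultures is not in the labels, so the p-values below measure the spread between libraries only.

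A synaptic vesicle fuses when a SNARE protein on the vesicle (a Vamp) zippers with SNAREs on the plasma membrane (a syntaxin and a Snap25-type protein). Synaptotagmins sense the calcium that triggers fusion, complexins clamp and promote it, and Nsf with its adaptors Napa and Napb pulls the spent SNARE complexes apart. Unc13, Rims and Rab3 proteins dock and prime vesicles at the release site, synapsins tether them in reserve, and granins fill the dense-core granules of neuroendocrine cells. Neurons include exons in several of these genes that other cells skip, among them very short microexons, and Srrm4 is known as the activator of many neuronal microexons.

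Total counts per library ran from 50086176 to 63715449 in experiment 1 and from 44186088 to 61159670 in experiment 2. Each targeted gene was lowest in its own knockdown. Srrm4 stood at 66.8 and 96.7 CPM (read counts relative to library size, scaled by TMM factors) in siNT, at 28.3 and 26.1 in siSrrm4 and at 44.9 and 53.7 in siZfp871. Zfp871 stood at 17.6 and 26.2 CPM in siNT and at 7.17 and 5.08 in siZfp871. In experiment 1, Nacc1 was at 208.5 CPM in siNT and 52.0 in siNacc1, and Mbnl1 and Mbnl2 were at 124 and 65.7 in siNT and 45.2 and 18.2 in their knockdown. Of 15 neuronal and neuroblastoma markers, 12 had at least 1 CPM in all 9 libraries and Nefl and Nefm were among those under 1 CPM in all of them. Of the 12 of these markers that were tested, edgeR called 3 lower and 0 higher in siZfp871 (Dbh, Phox2a and Stmn2) and 2 lower and 0 higher in siSrrm4 (Elavl4 and Hand2). Dbh, which makes noradrenaline, was at 110 and 72.9 CPM in siNT and at 22.9 and 15.9 in siZfp871, and the sympathetic factor Phox2a at 259 and 206 against 103 and 71.9. Elavl4, a neuronal RNA-binding protein, was at 227 and 215 CPM in siNT and at 113 and 126 in siSrrm4. These markers moved beside the member genes below, and their part in those results was not tested. Of 8 mesenchymal markers, 5 were under 1 CPM throughout, and of 9 glial markers, 7 were. The summed level of the mesenchymal list was 31.0 and 103 CPM in siZfp871, against 5.68 to 16.3 in siNT and 3.64 to 7.97 in siSrrm4. That sum follows Acta2, a smooth muscle actin, at 29.1 and 102 CPM in siZfp871 against 3.54 and 14.3 in siNT, and its part in the siZfp871 results below was not tested. In bulk RNA, fewer cells of a kind and less RNA per cell cannot be told apart.

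Several of the exons described below are shown here, because the differences in splicing turn on them. Exon positions are those of the deposited mm9 tables. The sequences are from GENCODE M21 transcripts on GRCm38, matched by the lengths of the exon and its flanking introns, 5′ to 3′, with the alternative exon in capitals between the ends of its neighbours. The Unc13a microexon is 6 nt long, lies at chr8:74163116-74163121 (mm9) and chr8:71639217-71639222 on the minus strand of GRCm38, and is coding exon 36 of 44 in the matched transcript.
Unc13a 6 nt: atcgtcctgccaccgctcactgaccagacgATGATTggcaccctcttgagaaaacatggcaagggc
The Unc13a 30 nt exon that passed the size rule after siNacc1 is exon 2 of 44, at chr8:74190540-74190569 (mm9) and chr8:71666641-71666670 on the minus strand of GRCm38.
Unc13a 30 nt: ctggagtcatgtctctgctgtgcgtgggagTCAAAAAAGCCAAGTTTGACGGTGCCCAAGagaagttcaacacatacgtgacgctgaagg
The Napb exon is 47 nt long, a length not divisible by 3, and is coding exon 4 of 11, at chr2:148532895-148532941 (mm9) and chr2:148707159-148707205 on the minus strand of GRCm38.
Napb 47 nt: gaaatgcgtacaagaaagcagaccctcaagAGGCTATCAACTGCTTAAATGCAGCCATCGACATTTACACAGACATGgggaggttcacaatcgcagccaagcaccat
The Rims2 exon of 252 nt lies at chr15:39418080-39418331 (mm9) and chr15:39586534-39586785 on the plus strand of GRCm38. The matched transcript is annotated as a retained intron rather than as coding, so no reading frame is given, and the exon alone is shown.
Rims2 252 nt: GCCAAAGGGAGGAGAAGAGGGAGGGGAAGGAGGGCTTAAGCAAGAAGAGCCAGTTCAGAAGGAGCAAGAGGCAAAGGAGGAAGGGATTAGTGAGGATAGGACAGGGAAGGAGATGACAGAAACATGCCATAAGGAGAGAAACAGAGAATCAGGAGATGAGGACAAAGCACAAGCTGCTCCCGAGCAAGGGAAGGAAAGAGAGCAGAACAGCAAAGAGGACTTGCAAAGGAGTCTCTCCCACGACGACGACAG
Snap25 has a pair of alternative exon 5 copies of 118 nt each, of which a transcript normally carries 1. They lie at chr2:136595479-136595596 and chr2:136595793-136595910 (mm9), on the plus strand, and share 87 of 118 bases (73.7%). Here capitals mark the 31 bases that differ between the copies.
Snap25 first copy: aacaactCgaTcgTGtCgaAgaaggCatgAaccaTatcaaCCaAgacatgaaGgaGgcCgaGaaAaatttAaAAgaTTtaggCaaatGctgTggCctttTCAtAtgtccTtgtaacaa
Snap25 second copy: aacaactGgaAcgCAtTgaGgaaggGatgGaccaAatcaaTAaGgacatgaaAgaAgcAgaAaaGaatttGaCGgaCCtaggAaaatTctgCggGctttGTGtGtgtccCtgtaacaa

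N2A cells expressed most of the exocytosis machinery before any knockdown. On the authors' scale per gene length (cRPKM, authors' mean over the siNT libraries of experiment 2), the granins Chgb and Vgf had the highest values, 549 and 389.5. Complexin 1 (Cplx1) stood at 156, the granins Chga, Scg2 and Scg3 at 149.9, 128 and 128, the plasma membrane SNARE Snap25 at 71.3, the vesicle SNAREs Vamp3 and Vamp2 at 67.2 and 51.4, and the synapsins Syn2 and Syn1 at 45.6 and 37.5. These are authors' means without a spread, so their order is not tested. At the other end, Cadps2 and Rims1 had 0 counts in all 6 libraries of experiment 2. Sv2b, Unc13b, Cadps and Rph3a had between 0 and 17 counts in each library, and these 6 genes were not tested. Stx3, a syntaxin, was listed at 0.175 cRPKM in siNT and Rab3b at 0.255.

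Knockdown of Srrm4 lowered 5 exocytosis genes and raised none past the test. They were Cplx2 and Cplx1 (complexins), Napb (a SNARE recycling adaptor), Sncg (gamma-synuclein) and Syn1 (synapsin 1). With edgeR's quasi-likelihood test and Benjamini-Hochberg adjustment over all tested genes, 5 of 41 tested members were called lower at an adjusted p under 0.05, where 3.29% of all tested genes were, and 0 of 41 were called higher, where 1.41% were. At an unadjusted p under 0.05, 11 members were lower and 5 higher, and the share of all tested genes at that level was not counted. The median log2 fold change of the 41 members was -0.07, and that of all tested genes was -0.00.

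Cplx2 stood at 105 and 92.2 CPM in siNT and at 35.5 and 27.5 in siSrrm4. Both knockdown libraries lay below both controls, with a log2 fold change of -1.65 (SE 0.14, edgeR adjusted p = 0.0178). Cplx1, the more abundant complexin per length, fell from 323 and 344 CPM to 159.7 and 147.5, a log2 change of -1.12 (SE 0.11, edgeR adjusted p = 0.0184). The complexin libraries did not overlap for either gene. With 2 libraries a group this was common: both siSrrm4 libraries lay below both controls in 26.5% of all tested genes.

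Napb stood at 69.1 and 70.2 CPM in siNT and at 26.99 and 18.36 in siSrrm4, a log2 change of -1.62 (SE 0.19, edgeR adjusted p = 0.0222). Its paralog Napa, which serves the same step, was at 57.9 and 56.9 CPM in siNT and at 67.63 and 69.96 in siSrrm4, and did not pass the test (log2 change 0.26, SE 0.08, edgeR adjusted p = 0.12). Nsf, the ATPase that both adaptors recruit, was at 149 and 147.5 CPM against 121 and 120.1, with an edgeR adjusted p of 0.0813.

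Sncg had the largest change of any tested member, from 25.5 and 16.4 CPM to 6.21 and 2.92, a log2 change of -2.21 (SE 0.38, edgeR adjusted p = 0.0349). Syn1, which tethers vesicles, fell from 122 and 115 CPM to 76.2 and 76.4, a log2 change of -0.63 (SE 0.09, edgeR adjusted p = 0.0276). Its relative Syn2 was at 158 and 141 CPM in siNT and 117 and 102 in siSrrm4, with an edgeR adjusted p of 0.0776. The synapsin libraries of siSrrm4 lay below both controls for both genes, as they did for 26.5% of all tested genes.

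No active zone gene, granin or other SNARE gene passed the test after Srrm4 knockdown when the column letter was not modelled. The 6 tested active zone and Rab3 genes ran from -0.49 to 0.24 on the log2 scale, with Unc13a, the vesicle priming factor, lowest at 323 and 290 CPM in siNT against 248 and 189.9 (SE 0.14, edgeR adjusted p = 0.104). The 5 granins ran from -0.28 (Vgf, a granule peptide precursor, at 1146 and 797 CPM against 863 and 737) to -0.05. The other 13 of the 14 SNARE and disassembly genes besides Napb ranged up to 0.26, with Snap25 at 157 and 134 CPM in siNT and 126 and 121 in siSrrm4 (edgeR adjusted p = 0.237). Sypl, a synaptophysin relative found outside neurons too, was higher, at 29.6 and 25.5 CPM against 39.1 and 39.8, and just missed the threshold (log2 change 0.52, SE 0.11, edgeR adjusted p = 0.0514).

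Libraries with the same column letter deviated together, and an edgeR fit with the letter as a replicate block changed these calls. It called 19 of 41 members in siSrrm4, 14 lower and 5 higher, where it called 36.9% of all tested genes (19.9% lower and 17% higher). Among them were Unc13a (blocked log2 change -0.49, adjusted p = 8.538e-05), Rab3c (-0.36, adjusted p = 0.00163), Vgf (-0.27, adjusted p = 0.0357), Nsf (-0.30, adjusted p = 0.00433) and Snap25 (-0.23, adjusted p = 0.0245), all lower, and Napa (0.26, adjusted p = 0.0164) and Stx1a (0.25, adjusted p = 0.0298), both higher. Syn2, Syt4, Sv2a and Syt7 were also called lower in the blocked fit, and Sypl, Syt11 and Syt5 higher.

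In the authors' deposited table, which gives an edgeR FDR for 15035 genes, 6.9% of genes had an FDR under 0.05 after Srrm4 knockdown. Of 45 members with a value there, 7 were lower and 2 higher. The authors' deposited table adds Syn2 and Syt4 to the lower genes and Sypl and Syt11 to the higher ones. The calls rest on few libraries. Leaving out 1 library at a time lost some or all of the 5 calls each time. Each omission also lost most or all calls among all tested genes, so the loss was not limited to the members. Over the same omissions the log2 change of Cplx2 ran from -1.84 to -1.47, of Cplx1 from -1.17 to -1.06, of Napb from -1.92 to -1.36, of Sncg from -2.84 to -1.75 and of Syn1 from -0.67 to -0.59. A fit to the 4 libraries of this comparison alone called 0 members and 0 genes in all, and DESeq2 called 14 of 41 members, 11 lower and 3 higher, where it called 15.3% of all genes (9.23% lower and 6.05% higher).

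**Figure D1:**
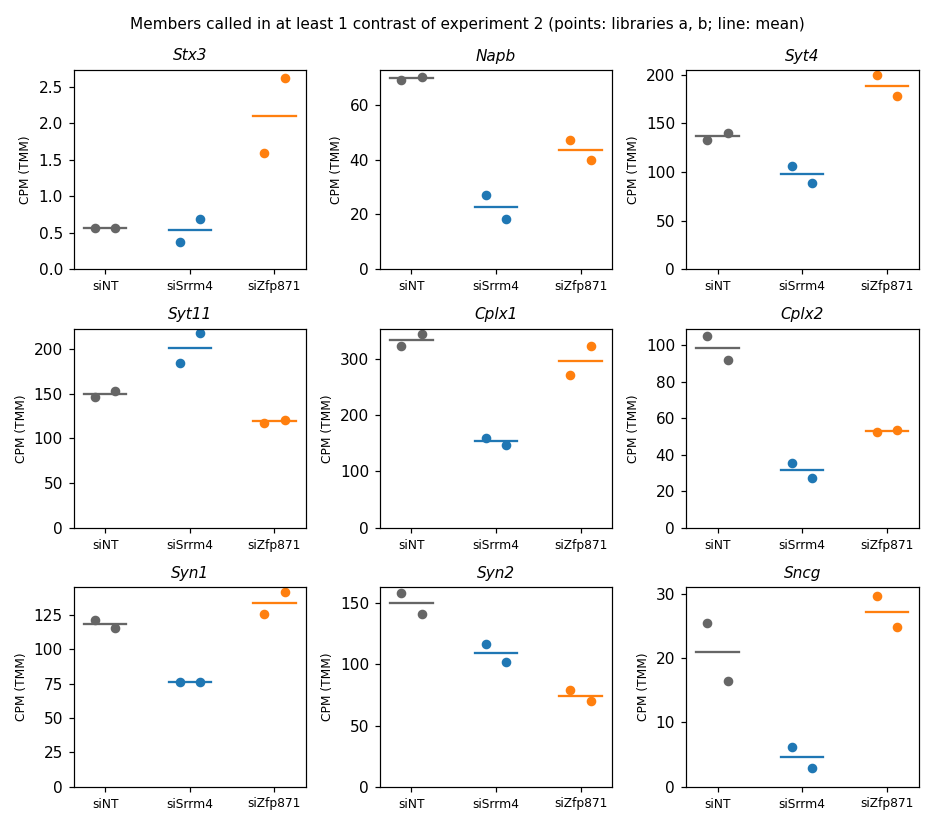
CPM (TMM-scaled, linear axes from 0) of the 9 members called in at least 1 contrast of experiment 2, in the libraries a and b of siNT, siSrrm4 and siZfp871, with the group mean as a line. Cplx1, Cplx2, Napb, Sncg and Syn1 lie lower in both siSrrm4 libraries than in both siNT libraries, and Syn2 is lowest in siZfp871.

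Knockdown of Zfp871 lowered 2 members, Cplx2 and Syn2. With the same edgeR test, 2 of 41 members were called lower, where 2.14% of all tested genes were, and 0 of 41 higher, where 0.751% were. At an unadjusted p under 0.05, 12 members were lower and 5 higher, again without a count for all tested genes. The median log2 change was -0.16 for the members and -0.01 for all genes. Both comparisons share the siNT libraries, so likeness between them is not independent.

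Cplx2 stood at 52.4 and 53.9 CPM in siZfp871, against the 105 and 92.2 of siNT, a log2 change of -0.89 (SE 0.14, edgeR adjusted p = 0.0355). Syn2, a synapsin, was at 78.7 and 69.9 CPM against 158 and 141, a log2 change of -1.01 (SE 0.12, edgeR adjusted p = 0.0227). In neither gene did a knockdown library reach a control library, and 25.5% of all tested genes were likewise lower in both siZfp871 libraries.

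The largest difference of a SNARE gene was that of Stx3, a syntaxin of low level here, with 26 and 27 counts in siNT and 71 and 132 in siZfp871. Its CPM were 0.561 and 0.563 against 1.59 and 2.62, a log2 change of 1.90 that did not pass the test (SE 0.41, edgeR adjusted p = 0.0708). Rab3b, a vesicle-bound small GTPase, was at 1.08 and 0.605 CPM in siNT and at 0.38 and 0.298 in siZfp871 (log2 change -1.31, SE 0.41, edgeR adjusted p = 0.144). Rab3a, the main Rab3 of neurons, was at 43.4 and 31.3 CPM against 23.4 and 19.7 (log2 change -0.80, SE 0.19, edgeR adjusted p = 0.0833).

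Sncg did not differ past the test in siZfp871 without the letter term, at 29.6 and 24.8 CPM against 25.5 and 16.4 in siNT, with overlapping libraries. Among the granins, Chgb had the largest difference, at 1654 and 1292 CPM in siNT and 1205 and 1047 in siZfp871 (log2 change -0.39, SE 0.15, edgeR adjusted p = 0.208). After Zfp871 knockdown 5.03% of genes had an FDR under 0.05 in the authors' deposited table, among them 4 lower members (Cplx2, Syn2, Napb and Rab3a) and 3 higher ones (Stx3, Sypl and Syt4). Both calls of the fit used here were lost when a control or siZfp871 library was left out, as were most or all calls among all tested genes. Both stayed without either siSrrm4 library, where calls among all tested genes fell too. Over these omissions the log2 change of Cplx2 ran from -0.99 to -0.78 and that of Syn2 from -1.10 to -0.91. DESeq2 called 9 of 41 members, 6 lower and 3 higher, where it called 11.3% of all genes (6.75% lower and 4.59% higher). The edgeR fit with the letter as a replicate block called 18 of 41, 12 lower and 6 higher, where it called 31.1% of all genes (17.3% lower and 13.8% higher). Those included Stx3 (blocked log2 change 1.88, adjusted p = 2.364e-05) and Sncg (0.41, adjusted p = 0.0205), both higher, and Rab3a (-0.78), Rab3b (-1.30) and Chgb (-0.38), all lower. Napb, Unc13a, Sv2a, Sv2c, Syn3, Syt11 and Vamp2 were also called lower in the blocked fit, and Sypl, Syt4, Scg2 and Vamp3 higher.

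**Figure D2:**
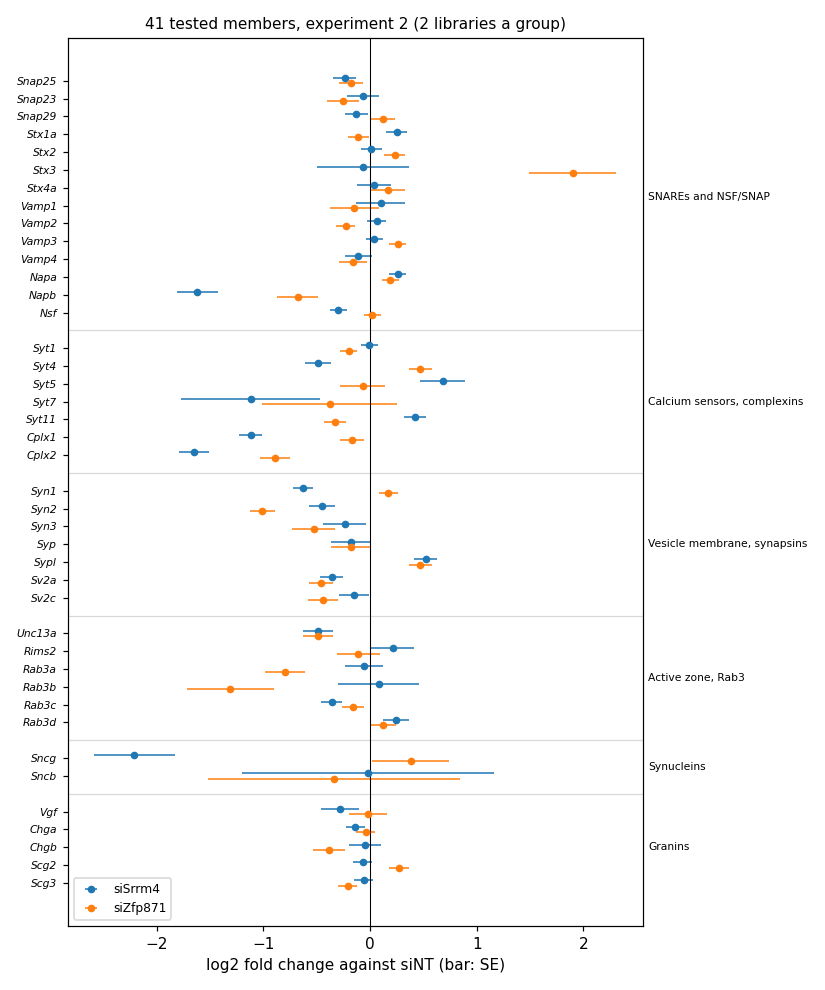
Log2 fold change against siNT (horizontal axis, bars are SE) of the 41 tested members, grouped by role, for siSrrm4 (blue) and siZfp871 (orange), 2 libraries a group and a shared control. Most points lie near 0, Sncg, Cplx2, Napb, Cplx1 and Syt7 lie farthest to the left in siSrrm4 (Syt7 with an SE of 0.65 and not called), and Stx3 lies farthest to the right in siZfp871 without passing the test.

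The knockdowns were also compared directly, which tests whether their effects differ. In siZfp871 against siSrrm4, 7 of 41 members were called higher, where 5.53% of tested genes were, and 2 lower, where 5.57% were. The higher genes were Cplx1, Cplx2, Napb, Sncg, Syn1, Syt4 and Stx3, and the lower ones Syn2 and Syt11.

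Sncg differed most, with a log2 difference of 2.59 (SE 0.39, edgeR adjusted p = 0.0171), followed by Stx3 at 1.97 (SE 0.41, edgeR adjusted p = 0.0342). Cplx1 and Napb differed by 0.95 and 0.94 (SE 0.11 and 0.19, edgeR adjusted p = 0.011 and 0.0318), Syn1 by 0.81 (SE 0.09, edgeR adjusted p = 0.0109) and Cplx2 by 0.75 (SE 0.14, edgeR adjusted p = 0.028). All 5 genes called lower in siSrrm4 were among those called higher here, and since they were picked for low values in siSrrm4, that count is a description. Against siNT, Sncg and Syn1 were not low in siZfp871 (log2 changes 0.38 and 0.17, neither called by the edgeR test without the letter term).

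Syt4 and Syt11, synaptotagmins that do not sense calcium in the classical way, were called in opposite directions. Syt4 was at 133 and 140.1 CPM in siNT, at 106 and 89.1 in siSrrm4 and at 199.9 and 178 in siZfp871, a log2 difference of 0.96 between the knockdowns (SE 0.12, edgeR adjusted p = 0.0112). Syt11 was at 146.5 and 153 CPM in siNT, at 184 and 218 in siSrrm4 and at 117 and 121 in siZfp871, a log2 difference of -0.76 (SE 0.10, edgeR adjusted p = 0.0144). Neither gene passed the test against siNT in either knockdown without the letter term, although for both the control libraries lay between those of the knockdowns. Of all tested genes, 29.1% had both siZfp871 libraries above both siSrrm4 libraries, and 30.3% had them below. With the letter as a replicate block both were called against siNT in both knockdowns. Syn2 was lower in siZfp871 than in siSrrm4 by 0.56 on the log2 scale (a difference of -0.56, SE 0.12, edgeR adjusted p = 0.0338). Leaving out siSrrm4 library b or either siZfp871 library lost all of these 9 calls, and every call among all tested genes with them. Leaving out siSrrm4 library a lost some of both. Leaving out either control library kept the 9 calls and added Rab3a and Syt5, while calls among all tested genes fell. DESeq2 called 15 of 41 members between the knockdowns, where it called 20.7% of all genes, and the blocked edgeR fit 24 of 41, where it called 41.9%. Beyond the 9 calls, the blocked fit called Nsf, Scg2, Snap29, Stx2, Syt7, Vamp3 and Vgf higher. It called Chgb, Rab3a, Rab3b, Rims2, Stx1a, Sv2c, Syt5 and Vamp2 lower.

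Other genes of the exocytosis pathway were counted from a list of 120 symbols, of which 88 were tested. After Srrm4 knockdown 5 of the 88 were called lower and 0 higher, where 3.29% and 1.41% of all tested genes were. The 5 were Nrxn2, a presynaptic adhesion receptor (log2 change -0.97, SE 0.15), Snap91, a clathrin adaptor (-0.76, SE 0.11), Cpe, a prohormone processing enzyme (-0.71, SE 0.10), Apba1, a presynaptic adaptor (-0.64, SE 0.12) and Rims4 (-0.51, SE 0.10). After Zfp871 knockdown 4 of the 88 were called lower and 0 higher, where 2.14% and 0.751% of all tested genes were, among them Apba1 (27.1 and 26.6 CPM in siNT, 14.3 and 12.6 in siZfp871), Slc18a2, the vesicular monoamine transporter (-0.91, SE 0.10) and Rims4 (-0.59, SE 0.10). Slc18a2 was at 103 and 96.98 CPM in siNT, 84.7 and 86.95 in siSrrm4 and 56.9 and 49.3 in siZfp871, so its siZfp871 libraries lay below all others. The edgeR adjusted p-values of the calls named here ran from 0.025 to 0.0474 in siSrrm4 and from 0.0227 to 0.0432 in siZfp871. Between the knockdowns, Nrxn2, Cpe and Exoc6 were called higher in siZfp871 than in siSrrm4, 3 of the 88, and 6 of the 88 lower, among them Slc18a2, Rab3gap2, Ppfia2, Scamp3 and Scamp4, where 5.53% of all tested genes were called higher and 5.57% lower. The median of the 88 genes was -0.10 after Srrm4 knockdown and -0.11 after Zfp871 knockdown.

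Splicing of the same genes was read as PSI, the inclusion reads of an exon in percent of its inclusion and exclusion reads together. In experiment 2, 59 cassette exons of 22 members could be tested among 20266 exons, with a median of 265 reads per exon and library. With edgeR's quasi-likelihood test and a minimum difference of 10 points, 0 of the 59 were called in siSrrm4 (0.123% of all exons were called), 0 in siZfp871 (0% of all) and 0 between the knockdowns (0% of all). At an unadjusted p under 0.05, 9, 10 and 7 of the 59 differed in these contrasts, where 5.71%, 4.67% and 5.33% of all exons did. The likelihood ratio test of the same model called 4 member exons lower in siSrrm4 (1.12% of all exons), 3 lower in siZfp871 (0.819%) and 3 higher in siZfp871 than in siSrrm4 (0.39%). The last 3 were the Sypl exon of 10 nt, the Napb exon of 47 nt and a Rims2 exon of 180 nt. The 0 calls of the first test do not show that the exons were unchanged.

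The exon of Sypl that is 10 nt long (chr12:33653499-33653508, mm9) had the largest difference. Its PSI was 64.5% and 71.3% in siNT, 25.9% and 20.9% in siSrrm4 and 46.7% and 45.7% in siZfp871, on 75 to 176 reads per library. The difference from siNT was -44.5 points in siSrrm4 (quasi-likelihood adjusted p = 0.14, likelihood ratio adjusted p = 3.556e-13, both edgeR) and -21.7 points in siZfp871 (0.888 and 0.0177, the same 2 tests). All 4 knockdown libraries lay below both controls, and siSrrm4 below siZfp871.

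The Unc13a microexon of 6 nt, shown above, was included at 95.3% and 93.4% in siNT, 74.9% and 74.4% in siSrrm4 and 85.6% and 80.5% in siZfp871, on 189 to 488 reads. The differences from siNT were -19.8 and -11.3 points, with edgeR quasi-likelihood adjusted p of 0.114 and 0.888 and likelihood ratio adjusted p of 1.33e-11 and 0.000133. Between the knockdowns the 6 nt exon differed by 8.43 points and passed neither test (edgeR quasi-likelihood adjusted p = 0.853, likelihood ratio adjusted p = 0.206). A second Unc13a exon, of 30 nt (chr8:74160437-74160466, mm9), was at 82.9% and 71.6% in siNT, 64.2% and 59.0% in siSrrm4 and 67.0% and 59.2% in siZfp871, and passed neither test in either contrast. The third microexon tested, of 12 nt in the release site scaffold Rims2, was at 6.38% and 10.3% in siNT, 4.51% and 3.11% in siSrrm4 and 4.61% and 2.86% in siZfp871, and passed neither test.

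The 47 nt exon belongs to Napb, whose mRNA fell in siSrrm4. In siZfp871 Napb mRNA was at 47.2 and 39.7 CPM, against 69.1 and 70.2 in siNT. That difference did not pass the test without the letter term (log2 change -0.68, SE 0.19, edgeR adjusted p = 0.111). It was called lower with the letter as a replicate block (-0.69, edgeR adjusted p = 6.254e-05). Inclusion of the exon was 97.3% and 98% in siNT, 76.1% and 69.7% in siSrrm4 and 87.6% and 87.7% in siZfp871, on 84 to 298 reads. The difference in inclusion in siSrrm4 was -24.7 points and came nearest the threshold of all member exons in this contrast (edgeR quasi-likelihood adjusted p = 0.0578, likelihood ratio adjusted p = 1.727e-14). In siZfp871 it was -10.0 points (0.85 and 3.85e-05, the same 2 tests). The level of Srrm4 itself moved beside these exons, at 44.9 and 53.7 CPM in siZfp871, between siSrrm4 and siNT (log2 change against siNT -0.73, SE 0.19, edgeR adjusted p = 0.099), and its part in the siZfp871 values was not tested.

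The Rims2 exon of 252 nt was at 13.7% and 15.6% in siNT, 5.41% and 3.08% in siSrrm4 and 12.6% and 10.7% in siZfp871, a difference of -10.4 points in siSrrm4 (edgeR quasi-likelihood adjusted p = 0.344, likelihood ratio adjusted p = 7.784e-06). The Rims2 exon of 180 nt was at 39.5% and 33.9% in siNT, 33.3% and 30.2% in siSrrm4 and 43.9% and 47.7% in siZfp871. Between the knockdowns it differed by 14.0 points (edgeR quasi-likelihood adjusted p = 0.853, likelihood ratio adjusted p = 0.00768). Of the pair of Snap25 exons, the first copy was at 91.0% and 85.5% in siNT and 97.6% and 95.1% in siSrrm4, and the second at 8.99% and 15.0% against 2.69% and 3.33%. These differences of 8.07 and -8.99 points stay under the minimum of 10 (edgeR quasi-likelihood adjusted p = 0.385 and 0.15, likelihood ratio adjusted p = 0.0469 and 0.000553). Of the 59 exons, 50 differed by under 5 points in siSrrm4 and 48 in siZfp871. At least 10 points of difference, whatever the test, was reached by 5 exons in siSrrm4 and 6 in siZfp871. Of all exons 5.3% and 4.95% reached it. Among those in siZfp871, a Vgf exon of 97 nt differed by 19.5 points on 10 to 24 reads a library (edgeR quasi-likelihood adjusted p = 0.888). A Stx4a exon of 99 nt differed by -11.7 points there (adjusted p = 0.888, same test).

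In the authors' deposited table of filtered splicing, 0.815% of cassette exons carry the differential mark for siSrrm4 and 0.662% for siZfp871. The mark is set for 4 of the 100 member exons with an entry in siSrrm4 (Napb 47 nt, Rims2 252 nt, Sypl 10 nt and Unc13a 6 nt). In siZfp871 it is set for 4 of 101 (Napb 47 nt, Sypl 10 nt, Unc13a 6 nt and Stx4a 99 nt). The rule behind the mark is not stated in the sources used here.

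**Figure D3:**
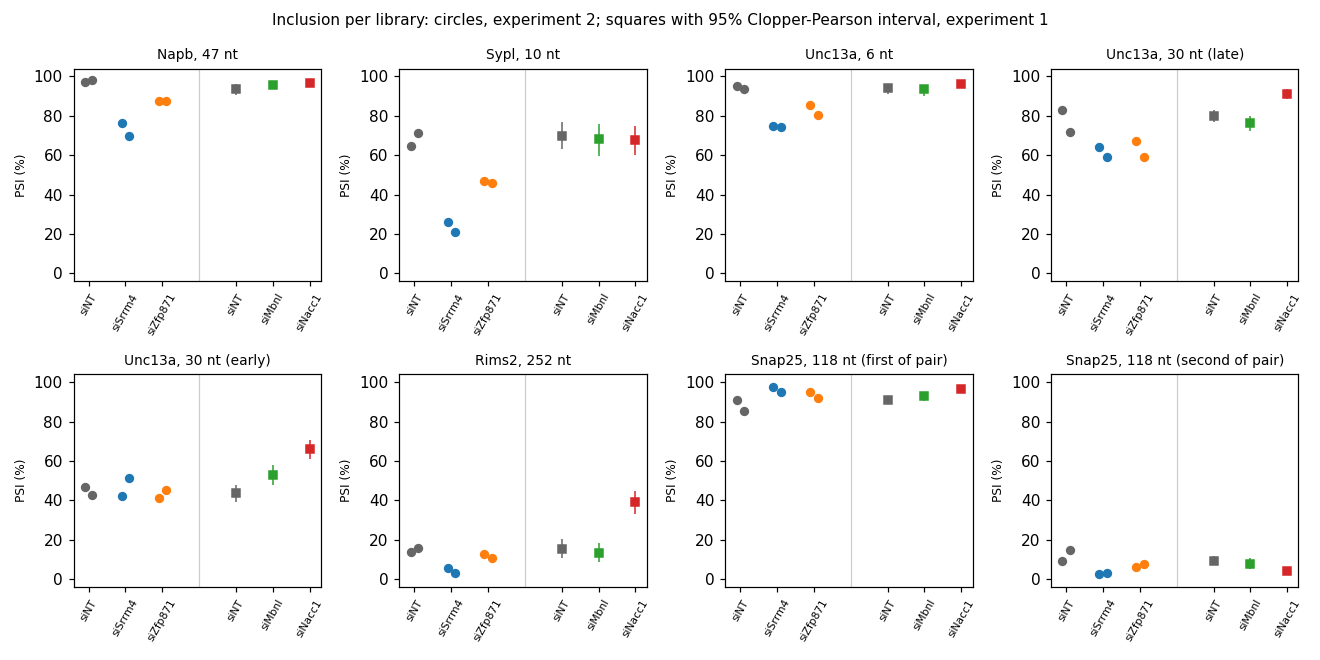
PSI in percent (vertical axes, 0 to 100) of 8 member exons in every library, with circles for the libraries of experiment 2 and squares with 95% Clopper-Pearson intervals for the single libraries of experiment 1. The Sypl, Napb and 6 nt Unc13a exons are lowest in siSrrm4 and intermediate in siZfp871, and the early 30 nt Unc13a exon and the Rims2 exon are highest in siNacc1. Between the knockdowns, the 6 nt Unc13a exon passed neither test.

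Experiment 1 has 1 library a group, so its differences have no replicate check and no p-value. A gene passed the size rule with at least 50 counts in 1 of both libraries and a log2 change of at least 1 in size. After siMbnl1/Mbnl2, 0 of 40 members passed, where 0.259% of all genes passed lower and 0.758% higher. The member changes ran from -0.70 (Rab3c, a vesicle Rab, at 191 CPM in siNT and 117 in the knockdown) to 0.74 (Sncg, at 13.6 and 22.6 CPM), with a median of -0.04 against -0.01 for all genes. Of the 40 members 23 had values under 0, where 52.8% of all genes had. All 5 granins were among these, from -0.50 to -0.04.

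After siNacc1 many exocytosis genes were lower than in siNT, though few by much. Of 40 members, 34 had a log2 change under 0, as had 47.8% of all genes, and the median was -0.28 against 0.01 for all genes. The size rule was passed by 2 members, both lower, where 2.97% of all genes passed lower. Sncb, beta-synuclein, was at 20.9 CPM in siNT (95% Poisson interval 19.8 to 22.0) and at 4.51 in siNacc1 (3.99 to 5.09), a log2 change of -2.20. Syt7, a calcium sensor of slow release, was at 22.8 CPM (21.7 to 24.1) and at 7.88 (7.19 to 8.62), a log2 change of -1.53. Both genes varied widely between the libraries a and b of experiment 2, as given in the closing section.

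Just short of the rule stood Cplx2, at 96.7 CPM in siNT and 48.4 in siNacc1, with a log2 change only slightly under 1 in size. Vgf was at 885 and 457 CPM (-0.95), Syn1 at 65.6 and 36.0 (-0.87), Syt5 at 18.8 and 10.4 (-0.85) and Sncg at 13.6 and 7.70 (-0.81). Some of these also varied between the siNT libraries a and b of experiment 2. There Vgf was at 1146 and 797 CPM, Syt5 at 22.2 and 14.2 and Sncg at 25.5 and 16.4. Cplx2 (105 and 92.2) and Syn1 (122 and 115) differed less. All 7 calcium sensors and complexins had log2 changes under 0 in siNacc1, as had 6 of 7 vesicle membrane genes and all 5 active zone and Rab3 genes. Of the SNARE and disassembly genes 10 of 14 did, within -0.53 to 0.21, with Snap25 at 185 CPM in siNT and 201 in siNacc1. In the wider list, 1 of 77 genes passed the rule, Stx11, at 5.80 CPM in siNT and 2.15 in siNacc1, and the list's median was -0.16.

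**Figure D4:**
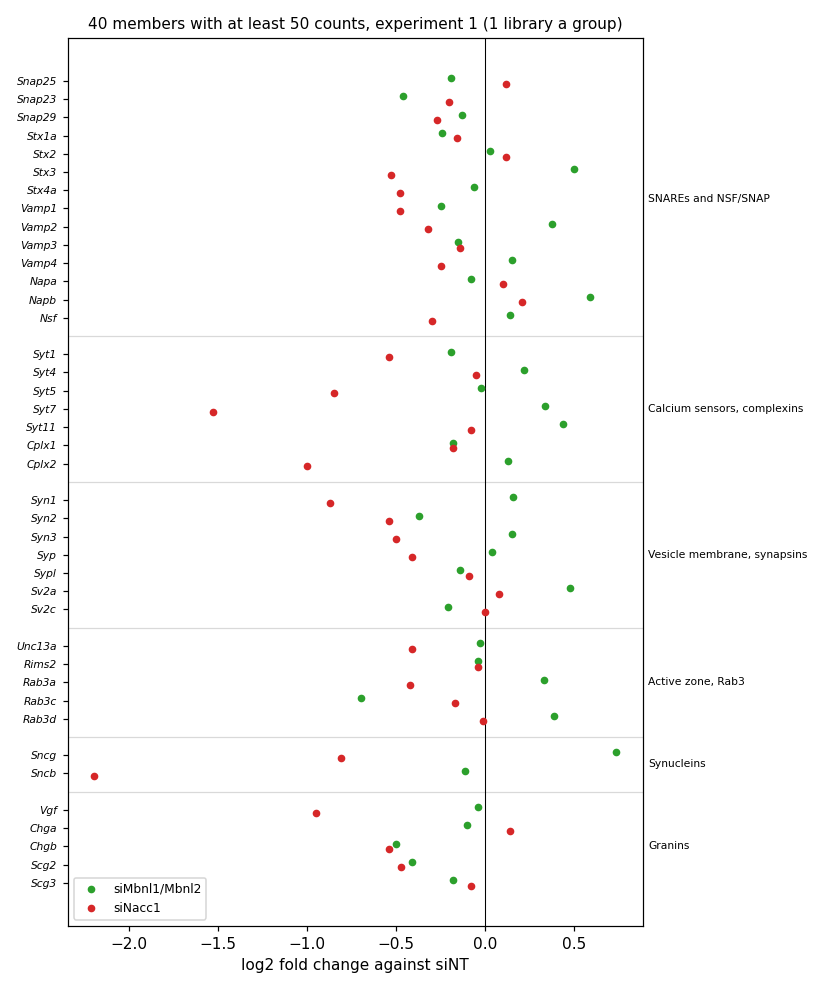
Log2 fold change against siNT (horizontal axis) of the 40 members with at least 50 counts in experiment 1, grouped by role, for siMbnl1/Mbnl2 (green) and siNacc1 (red), 1 library a group and a shared control, without error bars because there are no replicates. The siNacc1 points lie left of 0 for 34 of 40 members, with Sncb and Syt7 farthest.

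Of 92 member exons measured with at least 20 reads in all 3 libraries of experiment 1, 2 passed the size rule after siNacc1 (a difference of at least 20 points and 95% Clopper-Pearson intervals that do not overlap), both toward inclusion, where 0.127% of all exons passed higher. The Unc13a exon 2 of 30 nt, shown above, was at 43.5% in siNT (39.0% to 48.0%, 485 reads) and 66.1% in siNacc1 (61% to 70.8%, 377 reads). The Rims2 exon of 252 nt was at 15.3% in siNT (10.9% to 20.2%, 245 reads) and 38.9% in siNacc1 (32.9% to 44.9%, 268 reads). The same Rims2 exon was lower in siSrrm4 than in its own control, as given above, while the Unc13a exon 2 was at 46.8% and 42.6% in siNT of experiment 2 (libraries a and b) and 42.0% and 51.3% in siSrrm4, with overlapping libraries.

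The other 30 nt exon of Unc13a was at 80.1% in siNT and 91.2% in siNacc1, short of the 20 points. The microexons of Sypl (69.9% and 67.7%) and of Unc13a (93.9% and 96.1%) had overlapping intervals in siNT and siNacc1. After siMbnl1/Mbnl2, 0 of the 92 exons passed, where 0.323% of all exons passed lower and 0.21% higher. Those with the largest differences were a Rims2 exon of 87 nt, at 33.4% in siNT (27.1% to 40.8%) and 19.0% in the knockdown (12.3% to 26.9%), a Rims2 exon of 33 nt, at 29.2% (22.5% to 36.7%) and 17.0% (10.9% to 25.4%), and a Snap23 exon of 93 nt, at 0.771% (0.0193% to 4.18%) and 12.4% (6.56% to 21.7%). The intervals of the 33 nt exon overlap, and those of the other 2 do not, but they cover counting error only. In siNacc1, compared with the same siNT library, the 87 nt Rims2 exon was at 22.9% (17.1% to 30.1%). The 33 nt Rims2 exon was at 19.5% there (13.6% to 26.5%), and the Snap23 exon at 4.67% (1.47% to 10.1%). Both Rims2 exons thus lay below the shared siNT library in siNacc1 as well as in siMbnl1/Mbnl2. In the siNT libraries a and b of experiment 2 the 87 nt Rims2 exon was at 45.1% and 32.7%. The 33 nt Rims2 exon was at 48.6% and 36.3% in the same libraries. In the authors' deposited table the differential mark is set for 1.56% of exons after siMbnl1/Mbnl2, among members for 1 of 100 with an entry, the Snap23 exon. After siNacc1 it is set for 1.68%, among members for 2 of 91, the Rims2 exon of 252 nt and the Unc13a exon 2.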

How the data were processed

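PolyA RNA of N2A cells was measured in 9 libraries of 6 groups. The submitters' processing notes name mm9, CASAVA 1.8 and edgeR. No source used here gives the aligner or the gene counter. Per the file headers, the authors deposited raw read counts per gene, cRPKM (an RPKM value per gene length whose correction no header explains), log2 fold changes, FDR values (adjusted p-values) and, from vast-tools, PSI in percent. Inclusion and exclusion reads were taken from the deposited text cells of the primary splicing tables. The 17 further columns of per-library values were not used.

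Counts of experiment 2 were fitted with edgeR 4.0.16 in R 4.3.3 (filterByExpr, TMM, quasi-likelihood test, all 6 libraries in 1 fit) with calls at an adjusted p (Benjamini-Hochberg) under 0.05. Exons entered with 10 or more reads in all 6 libraries and 1 or more PSI values between 2 and 98; reads were rounded for the edgeR fit of inclusion against exclusion. This exon test did not call the changes in simulated data that it was tried on, although they had small unadjusted p-values, while the likelihood ratio test called them. The criterion for passing that trial was changed after this was seen, and the test itself was kept. Further, 5 settings of the exon fit were run on the real data before edgeR's default was kept, because its totals matched those of an earlier treatment of these data; their results are in the closing section. In experiment 1 (TMM, prior count 2) size rules replace tests. Intervals are 95% exact Poisson or Clopper-Pearson and cover counting error only.

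DESeq2 1.42.0, other filters, left-out libraries and a block on the column letter were run as alternatives. No source says what the letters stand for. The deviations of same-letter libraries from their group means correlated across genes at 0.749, 0.662 and 0.637 for the 3 pairs of groups. Members whose call the block changes are therefore named, with blocked values for some of them. The members, gene lists and rules were chosen with earlier results of these data known. Genes named with full values are those called, those past the size rule and, per role, the member with the largest change in each knockdown; others were named after their values were seen. Some genes of the lists are not reported here.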

Additional observations from a re-analysis of the deposited data

How the results depend on the processing

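For siSrrm4, siZfp871 and the direct comparison in turn, edgeR called 5, 2 and 9 members, DESeq2 14, 9 and 15 (15.3%, 11.3% and 20.7% of all genes), and edgeR with the column letter as a replicate block 19, 18 and 24 (36.9%, 31.1% and 41.9% of all genes), so the rise was not limited to the members. Only the 4 libraries of the comparison gave 0 for siSrrm4. Leaving out 1 library at a time gave 0 to 4, 0 to 2 and 0 to 11 calls; where that leaves 1 library in a group, it is assumed to vary like the others. Of the 176 fold changes of single called genes under an alternative, 109 stayed past the threshold, 67 did not and 0 changed sign. Member exons called went from 0 to 4, 3 and 3 with the likelihood ratio test. Among the settings added after seeing the data, tagwise dispersion gave 4, 2 and 0 and tagwise dispersion without an abundance trend 4, 2 and 1, while no abundance trend, a robust prior and reads rounded before the filter gave 0 in all 3. In experiment 1 a log2 change of 0.5 passed 5 members after siMbnl1/Mbnl2 (7.84% of all genes) and 12 after siNacc1 (13.4%), and a PSI difference of 10 points passed 2 exons after siMbnl1/Mbnl2 (1.21% of all exons). Apart from these, the counts stayed within 1.5 times of the main value. The cause was not tested.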

Other observations

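Sncb, which encodes beta-synuclein, differed between the column letters of experiment 2 in all 3 groups. It was at 53.9 CPM in library a and 7.47 in library b of siNT, at 53.7 and 7.18 in siSrrm4 and at 38.3 and 10.3 in siZfp871, ratios of 7.21, 7.47 and 3.72. Of the 41 members with at least 10 counts in every library it was the only one with a ratio of at least 2 in the same direction in all 3 groups. Syt7 had ratios of 2.11, 3.69 and 1.71, at 24.7 and 11.7 CPM in siNT, 13.2 and 3.58 in siSrrm4 and 17.6 and 10.3 in siZfp871. Sncb and Syt7 are the members that passed the size rule after siNacc1 in experiment 1. No source used here says what the letters stand for, and without a term for the letter the differences between groups in experiment 2 did not pass the edgeR test for either gene. With the letter as a replicate block Syt7 was called lower in siSrrm4 than in siNT (blocked log2 change -1.23, SE 0.17, edgeR adjusted p = 1.413e-05; within letters a and b the log2 ratios were -0.90 and -1.71) and higher in siZfp871 than in siSrrm4 (0.90, SE 0.17, edgeR adjusted p = 0.000307). Sncb was called in none of the 3 contrasts with the block.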
